A study of Mus musculus with 2 samples.

Results

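The 9 genes described here encode receptors with which myeloid cells detect microbes, together with proteins that relay or amplify those signals. They comprise the Toll-like receptors Tlr2, Tlr4 and Tlr13, the co-receptor Cd14, the adaptor Myd88, the amplifying receptors Trem1 and Trem3, and the formyl peptide receptors Fpr1 and Fpr2. They were taken by symbol from the 32285 gene rows of the count matrices, and all 9 symbols were found. The data came from 2 droplet libraries of leukocytes from BALB/cAnNCrl mice bearing liver metastases of 4T1, a mouse mammary carcinoma line. The female mice were 7 to 8 weeks old at purchase. Each library held 3 groups marked by antibody hashtags: vehicle, low-dose CBL0137 and high-dose CBL0137. CBL0137 is a small molecule, given in this study through the hepatic artery, and all animals, the vehicle group included, carried tumors. Cells of 2 mice were pooled in each group 5 days after treatment, so every hashtag group in a library was 1 sample. No comparison below therefore had a replicate, no p-value was computed, and the intervals cover counting error only. Neither the labels nor the study's methods stated the doses of these groups.

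The tissue markers of the libraries went against their labels. Clec4f, which marks Kupffer cells, the resident macrophages of the liver, had 0 UMIs (unique molecular identifiers, each standing for 1 captured transcript) where the label reads liver and 3520 where it reads spleen. Levels are given as CPM, the UMIs of a gene scaled to 1e+06 UMIs of the same cells. Hepatocyte markers summed to 0.0874 and 82.0 CPM, and endothelial markers to 32.5 and 316, in the same order. The follicular B cell gene Ighd had 83.1 and 16.6 CPM. The libraries are called the liver-labelled and the spleen-labelled library below, with no statement on tissue. According to the study's methods the cells were selected with CD11b beads, while its figure legends describe liver leukocytes without naming that step. T-like and B-like cells were present in both libraries. Hashtags assigned 8435 of 9591 barcodes of the liver-labelled library to a group (3103 to vehicle, 3194 to low dose, 2138 to high dose). For the spleen-labelled library these were 2988 of 4830 (822, 1301 and 865). The libraries shared 15 barcode sequences, 6 of them assigned in both.

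Toll-like receptors recognize conserved microbial molecules: TLR2 lipoproteins, TLR4 with its co-receptor CD14 lipopolysaccharide, and mouse TLR13 a bacterial ribosomal RNA sequence inside endosomes. All of these Toll-like receptors signal through the adaptor MyD88 toward NF-kB and inflammatory cytokines. TREM-1 and TREM-3 pair with the adaptor DAP12 (gene Tyrobp) and enhance such responses, while the formyl peptide receptors are G protein-coupled chemoattractant receptors that guide neutrophils toward bacteria and injured tissue.

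The positions were read from GENCODE M21 on GRCm38, the assembly also called mm10 in the processing notes. All 9 genes were annotated as protein coding. Fpr1 (chr17:17876471-17883940, minus strand) and Fpr2 (chr17:17887824-17893952, plus strand) lay head to head with 3883 bases between their starts. Trem1 (chr17:48232768-48246924) and Trem3 (chr17:48247777-48258841) lay in tandem on the plus strand of the same chromosome, 852 bases apart. The Toll-like receptor genes stood on separate chromosomes, Tlr2 at chr3:83836272-83841767 (minus), Tlr4 at chr4:66827584-66930284 (plus) and Tlr13 at chrX:106143204-106160493 (plus). Myd88 lay at chr9:119335934-119341411 (minus). Fpr2 shared 48 exonic bases with Fpr3 on the same strand, so UMIs from that stretch cannot be assigned with certainty. Myd88 shared 290 with Acaa1a on the opposite strand, and no source used here states whether counting took strand into account.

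RefSeq promoter windows on GRCm38.p6 were found for 6 of the 9 genes. The 250 bases before the RefSeq start, less any that GENCODE places in an exon of the gene, are shown for the genes on which the results below turn: the neighbours Fpr1 and Fpr2, Trem1, Tlr13 and Tlr2. Capitals mark matches, on either strand, to the core GAGGAA bound by the myeloid factor PU.1, to the C/EBP motif TTGCNNAA or to the NF-kB consensus.
Fpr1 (chr17:17883941-17884189, minus strand): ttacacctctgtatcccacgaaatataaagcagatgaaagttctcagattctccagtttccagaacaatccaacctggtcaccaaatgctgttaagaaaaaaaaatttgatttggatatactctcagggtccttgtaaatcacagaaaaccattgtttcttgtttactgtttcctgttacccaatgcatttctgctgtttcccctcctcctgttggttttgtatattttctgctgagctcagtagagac
Fpr2 (chr17:17887574-17887823, plus strand): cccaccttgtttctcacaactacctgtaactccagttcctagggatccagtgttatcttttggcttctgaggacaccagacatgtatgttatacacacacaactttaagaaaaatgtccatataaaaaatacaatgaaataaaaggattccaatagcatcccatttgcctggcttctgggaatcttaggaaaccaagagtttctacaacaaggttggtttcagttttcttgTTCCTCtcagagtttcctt
Trem1 (chr17:48232489-48232738, plus strand): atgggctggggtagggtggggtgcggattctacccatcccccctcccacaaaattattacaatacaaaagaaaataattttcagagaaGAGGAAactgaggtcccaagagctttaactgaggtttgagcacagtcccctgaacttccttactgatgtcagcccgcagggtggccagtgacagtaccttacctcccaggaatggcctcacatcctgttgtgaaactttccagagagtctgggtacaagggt
Tlr13 (chrX:106143025-106143203, plus strand): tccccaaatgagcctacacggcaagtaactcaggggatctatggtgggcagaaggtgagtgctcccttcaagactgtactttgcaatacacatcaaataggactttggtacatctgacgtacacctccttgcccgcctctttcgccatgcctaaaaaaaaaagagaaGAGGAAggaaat
Tlr2 (chr3:83841768-83841858, minus strand): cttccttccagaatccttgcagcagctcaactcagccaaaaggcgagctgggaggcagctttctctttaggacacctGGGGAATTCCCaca
The PU.1 core began 162 bases before the start of Trem1, 83 before that of Tlr13 and 19 before that of Fpr2, and 23.3% of 32851 such windows of 250 bases genome-wide held it. Tlr2 had 2 overlapping matches to the NF-kB consensus, beginning 173 and 172 bases before the start, in a palindromic stretch. That consensus was present in 3.9% of all windows. The C/EBP motif, found in 9.56% of all windows, was in none of the 6 windows read, and Fpr1 and Myd88 held none of the 3 motifs. A match describes letters in the window and not a bound site.

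Cells were grouped by clustering with the 9 genes left out, and clusters were named from marker lists. In the liver-labelled library the UMIs of the 9 genes lay mainly in neutrophil-like cells. Immature and mature neutrophil-like cells made up 34.9% of its assigned cells and held 39.4% of all its UMIs. They held between 61.3% (Trem3) and 94.4% (Fpr1) of each gene's UMIs. Trem1 was nearly as concentrated there, with 89.7% of its 2308 UMIs. Granulocyte progenitor-like cells held a further 35.3% of the Trem3 UMIs, with 22.1% of all UMIs. The same classes were 38.0% of the spleen-labelled library and held 80.3% of its Trem1 UMIs, but 40.2% for Myd88, 38.6% for Tlr2, 33.9% for Tlr13 and 27.2% for Tlr4. For Tlr13, a receptor for bacterial RNA, and Tlr4, the lipopolysaccharide receptor, these shares were below the share of cells. The same classes held 32.4% of all UMIs of that library, below their Tlr13 share and above their Tlr4 share. Mature neutrophil-like cells alone held 22.2% of the Tlr13 and 13.1% of the Tlr4 UMIs, with 7.56% of all UMIs. Macrophage-like cells held 30.4% and 27.6% of the Tlr13 and Tlr4 UMIs, with 12.8% of all UMIs. Fewer cells of a type and less RNA per cell are both contained in such shares.

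**Figure D1:**
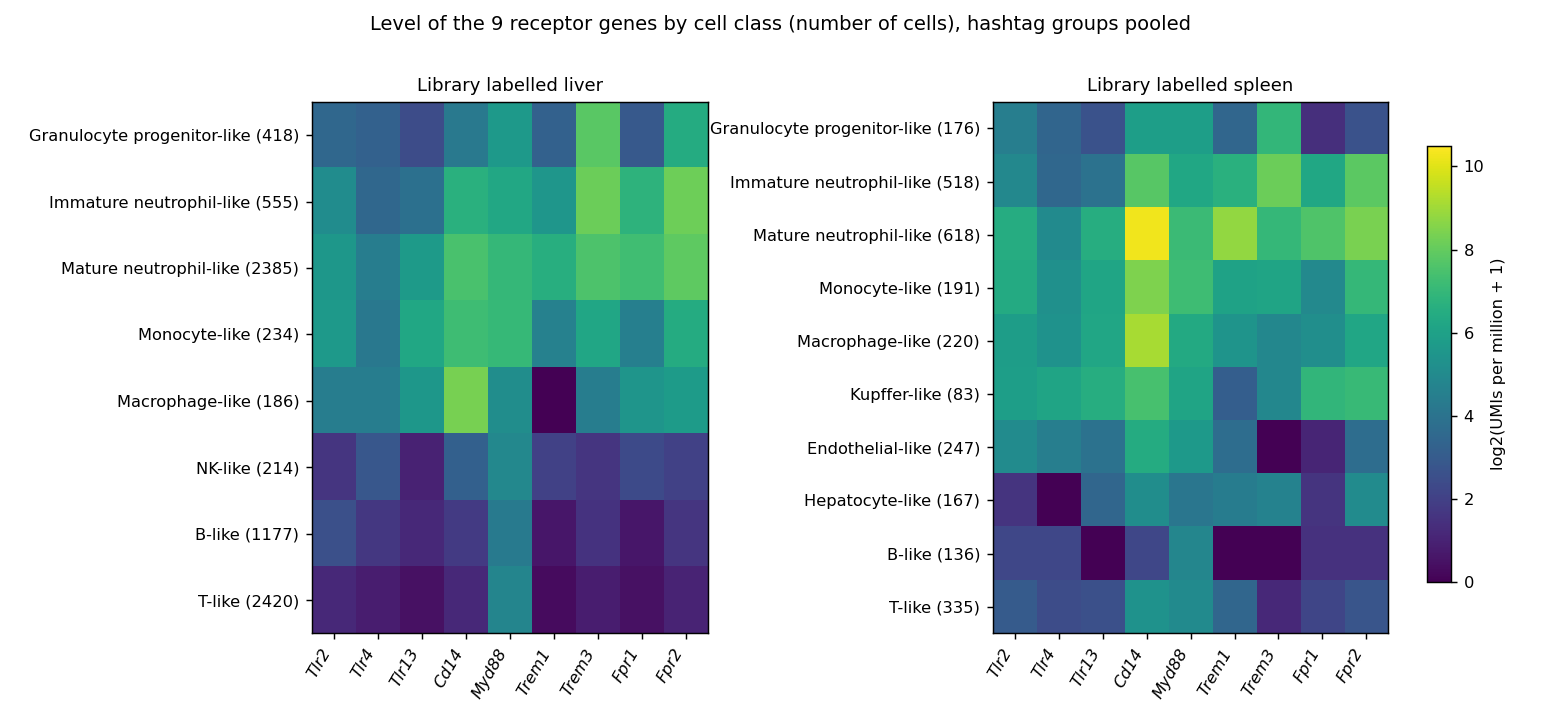
Level of each gene (columns) in the cell classes of the rows, with their numbers of cells, as log2(CPM + 1), all hashtag groups pooled. Colours are to be compared down a column, gene by gene. The neutrophil, monocyte and macrophage rows are brighter than the lymphocyte rows for most genes, but macrophage-like cells of the liver-labelled library have 0 Trem1 UMIs. The lymphocyte rows are dark except for Myd88 and, in the spleen-labelled library, Cd14 in T-like cells, and Trem3 is brightest in the immature neutrophil-like rows.

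Lymphocytes gave the background. Vehicle T-like cells of the liver-labelled library held from 0.337 (Tlr4) to 1.68 (Tlr2 and Cd14) CPM for the 8 genes other than Myd88, which stood at 23.6 (95% Poisson interval 18.4 to 29.8). MyD88 also serves interleukin-1 family receptors, which lymphocytes carry. The 45 vehicle T-like cells of the spleen-labelled library had 0 UMIs of Trem3, Fpr1 and Fpr2 (a count of 0 allows up to 13.2 CPM). The same cells held 17 UMIs of Cd14 (74.8 CPM, interval 43.6 to 120), against none in 32 B-like cells (up to 27.6 CPM). After thinning every cell to 500 UMIs, 46.3% of the vehicle mature neutrophil-like cells of the liver-labelled library had a UMI of at least 1 of the 9 genes, against 2.22% of T-like cells. The corresponding shares in the spleen-labelled library were 64.8% and 4.44%. Unthinned, they were 95.9% and 12.7%, and 95.3% and 15.6%, at median depths of 3702.5 and 4808 UMIs, and 2400 and 3580 UMIs, for mature neutrophil-like and T-like cells.

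The order of the classes differed between genes. Among vehicle cells of both libraries, Cd14, Trem1 and Fpr1 were highest in the mature neutrophil-like class, leaving out the 13 Kupffer-like cells, which held 7 Fpr1 UMIs (135 CPM). For Cd14 these stood at 182 CPM (interval 173 to 192) in the liver-labelled library, above monocyte-like (124), immature neutrophil-like (93.4) and macrophage-like cells (47.1), and the intervals of immature neutrophil-like and macrophage-like cells overlapped. Mature neutrophil-like cells of the spleen-labelled library held 1346 Cd14 CPM, ahead of macrophage-like (485), monocyte-like (377) and immature neutrophil-like cells (183), with no overlap between neighbours. Trem1 was undetected in the 64 vehicle macrophage-like cells of the liver-labelled library. A count of 0 allows up to 14.1 CPM there, and monocyte-like cells of that library held 14.9. Fpr1 was far higher in mature neutrophil-like than in monocyte-like cells, with 135 against 8.46 CPM in the liver-labelled library and 119 against 13.2 in the spleen-labelled library. Kupffer-like cells of all hashtag groups held 120 Fpr1 CPM (107 UMIs), below mature (193) and above immature neutrophil-like cells (76.3) of that library.

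For the Toll-like receptors, monocyte-like or macrophage-like vehicle cells stood near mature neutrophil-like cells. Tlr13 stood at 68.7 CPM in monocyte-like and 63.9 in mature neutrophil-like vehicle cells of the liver-labelled library, with overlapping intervals. Macrophage-like cells led in the spleen-labelled library, at 103, with mature neutrophil-like (90.5) and monocyte-like cells (75.4) next and overlapping. The 13 vehicle Kupffer-like cells, left out of this order, held 4 Tlr13 UMIs (77.3 CPM). With all hashtag groups pooled, Kupffer-like cells held 91.8 Tlr13 CPM (82 UMIs) and macrophage-like cells 74.2, with overlapping intervals. Tlr2 was highest in monocyte-like cells of the liver-labelled library (47.3) and in mature neutrophil-like cells of the spleen-labelled library (97.1), in each case next to the other of these classes. Tlr4, with 714 and 518 UMIs in all, led in macrophage-like cells of the liver-labelled library (28.3, from 6 UMIs) and in monocyte-like cells of the spleen-labelled library (43.7), where the 13 vehicle Kupffer-like cells were again left out, and the intervals of all neighbouring classes overlapped in both. Over all hashtag groups, Kupffer-like cells held 68.3 Tlr4 CPM (61 UMIs), above macrophage-like (39.6) and monocyte-like cells (37.3). Myd88 stood at 131 and 116 CPM in mature neutrophil-like and monocyte-like cells of the liver-labelled library, and at 127 and 154 in the spleen-labelled library.

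Trem3 and Trem1, although adjacent in the genome, differed in opposite directions between immature and mature neutrophil-like cells. Comparing immature with mature neutrophil-like vehicle cells, the log2 ratio of Trem3 was 0.71 (95% interval 0.59 to 0.83) in the liver-labelled library and 1.70 (1.31 to 2.13) in the spleen-labelled library. That of Trem1 was -1.31 (-1.56 to -1.06) and -2.22 (-2.47 to -1.97). Trem3 levels were 267 and 163 CPM in immature and mature cells of the liver-labelled library, and 295 and 90.5 in the spleen-labelled library, with progenitor-like cells at 243 and 142. Both genes were higher in immature than in progenitor-like cells, where Trem1 stood at 8.21 and 13.2 against 39.0 and 105 in immature cells, although the Trem3 intervals overlapped in the liver-labelled library. Tlr13 was at 10.1 CPM in immature and 63.9 in mature cells of the liver-labelled library, the largest difference among the 9 genes there, and at 12.8 and 90.5 in the spleen-labelled library, with log2 ratios of -2.67 and -2.82, the latter from 30 and 55 UMIs. Cd14 was lower in immature cells by unequal amounts, at -0.96 and -2.88.

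The remaining genes followed Trem1 more weakly, except Fpr2. Tlr2 had log2 ratios of -0.86 and -1.90, Tlr4 of -1.20 and -1.63, Myd88 of -1.04 in both libraries and Fpr1 of -0.60 and -0.98. Fpr2 differed little and in opposite directions, at 0.23 (0.12 to 0.33) in the liver-labelled library and -0.41 (-0.66 to -0.16) in the spleen-labelled library. With at least 100 UMIs over both classes and a 2-fold difference as the rule, 4 of 9 genes were lower in immature cells of the liver-labelled library, where 22.6% of all 5568 tested genes were. None was higher (background 2.82%). In the spleen-labelled library 4 of the 7 genes with enough UMIs were lower (background 24.7% of 2344) and Trem3 was higher (background 19.5%). The median log2 ratio of all tested genes was -0.43 in the liver-labelled and -0.14 in the spleen-labelled library. Maturity here is a name for clusters, and the members of a class differ between the libraries, as described next.

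Within the granulocyte clusters the change was graded. In the liver-labelled library, the progenitor cluster led by Mpo and Myb held 72.5 Trem3 CPM, the one led by Elane and Prtn3 held 363, the immature cluster led by Camp and Ltf held 302, and the mature clusters led by Saa3 or Il1b held between 98.2 and 115. Fpr1 in the same progenitor and immature clusters stood at 0.78, 12.9 and 41.4, and it then reached 191 in the second immature cluster, led by Prok2 and Retnlg. The name of this second cluster rests on few markers, with 3 of the 7 immature markers raised. Ly6g and Mmp8 of the immature list and Retnlg of the mature list were among its leading genes. It held 95 of the 205 vehicle immature cells. Tlr13 came later, with 24.8 in that cluster and 75.7 to 137 in the mature clusters led by Saa3 or Il1b. One granulocyte cluster in each library was led by the stefin genes Stfa3 and Stfa2, which encode cysteine protease inhibitors. It was named mature in the liver-labelled library, where 4 of the 9 mature markers were raised. Of that list only the stefin gene Stfa2l1 was among its leading genes, so the name rests on few markers. In the spleen-labelled library 7 of the 7 immature markers were raised and it was named immature. Its Trem3 levels were 224 CPM in the liver-labelled and 185 CPM in the spleen-labelled library. In the liver-labelled library that level lay above the other mature clusters and between the 2 immature clusters (302 and 192). In the spleen-labelled library it lay above the mature clusters.

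**Figure D2:**
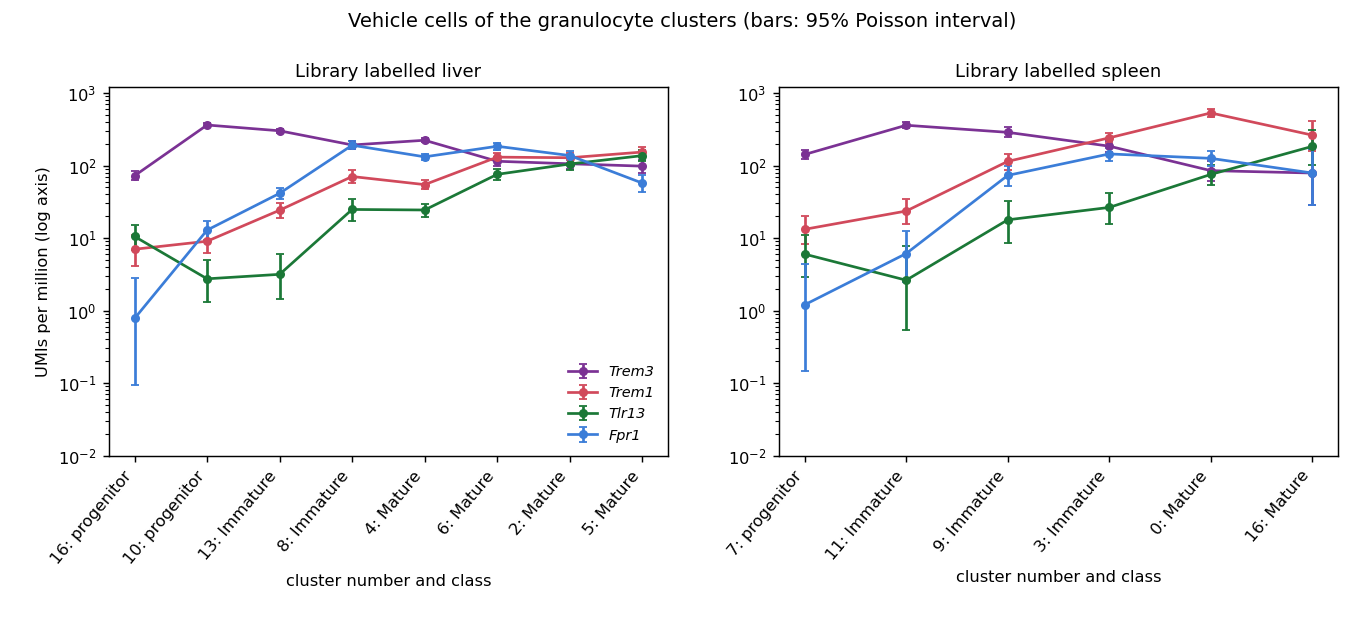
CPM (log axis) of Trem3, Trem1, Tlr13 and Fpr1 in vehicle cells of each granulocyte cluster, arranged from progenitor to mature by class and leading genes, with 95% Poisson intervals; the cluster led by Orm1 and Saa1 in the spleen-labelled library, with 2 vehicle cells, is not drawn. Trem3 peaks in cluster 10 (363) and cluster 11 (360), led by Elane and by Cebpe, and is lower in the mature clusters, whereas Trem1, Tlr13 and Fpr1 are low in the progenitor clusters and higher in the late ones.

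Cd14 (chr18:36725067-36726798, minus strand) and Trem1 were the genes that differed most between the libraries. Vehicle mature neutrophil-like cells of the spleen-labelled library held 1346 Cd14 CPM and those of the liver-labelled library 182, a log2 ratio of 2.89 (2.76 to 3.01). Trem1 stood at 489 and 96.7, a log2 ratio of 2.34 (2.14 to 2.53). Tlr2, at 97.1 and 37.4, was the third gene past 2-fold, with a log2 ratio of 1.38 (0.95 to 1.78). These 3 of 9 genes compare with 4.63% of 4945 tested genes that were at least 2-fold higher. None of the 9 was at least 2-fold lower (background 5.22%). Myd88 (-0.05), Fpr1 (-0.19) and Tlr4 (0.33) had intervals that included 0, and Fpr2 (0.28, 0.05 to 0.50) and Tlr13 (0.50, 0.07 to 0.91) were slightly higher. Trem3 was lower in the spleen-labelled library among mature cells (-0.85, -1.27 to -0.46) but higher over all neutrophil-like cells (0.34, 0.22 to 0.46), so its direction depended on the class. The mature class held the stefin-high cluster in the liver-labelled library only. In vehicle cells of that cluster Tlr13 was lower and Trem3 higher than in the other mature clusters of the library. The part of that cluster in the Tlr13 and Trem3 ratios was not tested. Immature cells were 168 of the 361 vehicle neutrophil-like cells of the spleen-labelled library and 205 of the 1437 of the liver-labelled one. Ratios over all neutrophil-like cells, here and below, contain this mix.

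Mature clusters other than the stefin-high one also differed in Cd14 and Trem1 between the libraries. The largest mature cluster of the spleen-labelled library, led by Il1b and G0s2, held 1303 Cd14 and 532 Trem1 CPM in its 161 vehicle cells, and the smaller cluster led by Cxcl3 held 1737 and 263 in 30 cells. The 3 mature clusters of the liver-labelled library outside the stefin-high one held 228 to 248 Cd14 and 128 to 154 Trem1. These levels lay above the 182 and 96.7 CPM of its whole mature class. No ratio was computed with the stefin-high cluster left out. Over all neutrophil-like cells the log2 ratios were smaller, 1.48 (1.38 to 1.59) for Cd14, 1.26 (1.11 to 1.42) for Trem1 and 0.36 (0.06 to 0.66) for Tlr2. Shares of mature vehicle cells with a UMI, each cell thinned to 500 UMIs, pointed the same way, at 38.3% against 10.1% for Cd14 and 23.8% against 6.33% for Trem1, spleen-labelled against liver-labelled. Thinned T-like vehicle cells, which should lack both, had Cd14 in 2.22% of 45 and 0% of 585 cells and Trem1 in 0% and 0.171%, where a count of 0 allows up to 0.513% of 585 and 6.67% of 45 cells. Unthinned shares were 80.3% and 53.2% for Cd14 and 61.7% and 41.2% for Trem1, at median depths of 2400 and 3703 UMIs. Monocyte-like vehicle cells differed likewise, with log2 ratios of 1.61 (1.36 to 1.86) for Cd14, 1.96 (1.26 to 2.68) for Trem1 and 1.46 (0.71 to 2.20) for Tlr4, the last from 33 and 32 UMIs. Library, tissue of origin and handling cannot be told apart in this design. T-like cells of the spleen-labelled library also held more Cd14 than those of the liver-labelled library, as given above, and its part in these ratios was not tested.

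CBL0137 dose was first compared in mature neutrophil-like cells. The class was much smaller at the high dose, with 156 of 2138 assigned cells in the liver-labelled library against 1232 vehicle and 997 low-dose cells, and with 15 cells in the spleen-labelled library against 193 and 410. Of the 156 cells, 140 were in the stefin-high cluster, which held 214 of the 1232 vehicle cells. That cluster was named mature with 4 of the 9 mature markers raised. Median depth was 3702.5, 4341 and 18159 UMIs per cell in the vehicle, low-dose and high-dose groups of the liver-labelled library, and 2400, 3008.5 and 7322 in the spleen-labelled library. The median log2 ratio of all 5306 tested genes was -0.46 for high dose against vehicle in the liver-labelled library, so ratios there are to be read against that shift.

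At the high dose in the liver-labelled library, Tlr13, Tlr4, Trem1, Cd14 and Myd88 had levels below vehicle. Tlr13, the endosomal receptor, stood at 63.9, 49.1 and 26.5 CPM in the vehicle, low-dose and high-dose groups, and its high-dose log2 ratio of -1.27 (-1.63 to -0.93) was the one past 2-fold. This 1 of 9 compares with 19.5% of all tested genes at least 2-fold lower, so the count of the 9 genes is no larger a share than the background. None of the 9 was at least 2-fold higher (background 0.735%). Tlr4 went from 20.9 to 10.8 (log2 ratio -0.96, interval -1.54 to -0.41), Trem1 from 96.7 to 63.7 (-0.60, -0.84 to -0.37), Cd14 from 182 to 124 (-0.55, -0.72 to -0.38) and Myd88 from 131 to 93.4 (-0.49, -0.68 to -0.30). The last 3 ratios were close to the median of all genes, and that of Cd14 turned to 0.55 when clusters were drawn at resolution 0.4 in place of 0.8.

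Trem3 and Fpr1 stood above vehicle at the high dose. Trem3 had 163, 195 and 225 CPM across the 3 groups, with a high-dose log2 ratio of 0.46 (0.33 to 0.60). Fpr1 had 135, 182 and 155, with a ratio of 0.20 (0.04 to 0.36). Fpr2 was level at 244, 232 and 242, and Tlr2 at 37.4, 57.2 and 45.4 had a high-dose ratio of 0.28 (-0.02 to 0.58).

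Low-dose cells of the same library stayed close to vehicle. None of the 9 genes passed 2-fold, where 0.183% of 6020 tested genes were higher and 0.764% lower. The largest low-dose log2 ratios were those of Tlr2 at 0.61 (0.39 to 0.84) and Fpr1 at 0.43 (0.31 to 0.55), and Tlr13 was lower at -0.38 (-0.59 to -0.18).

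**Figure D3:**
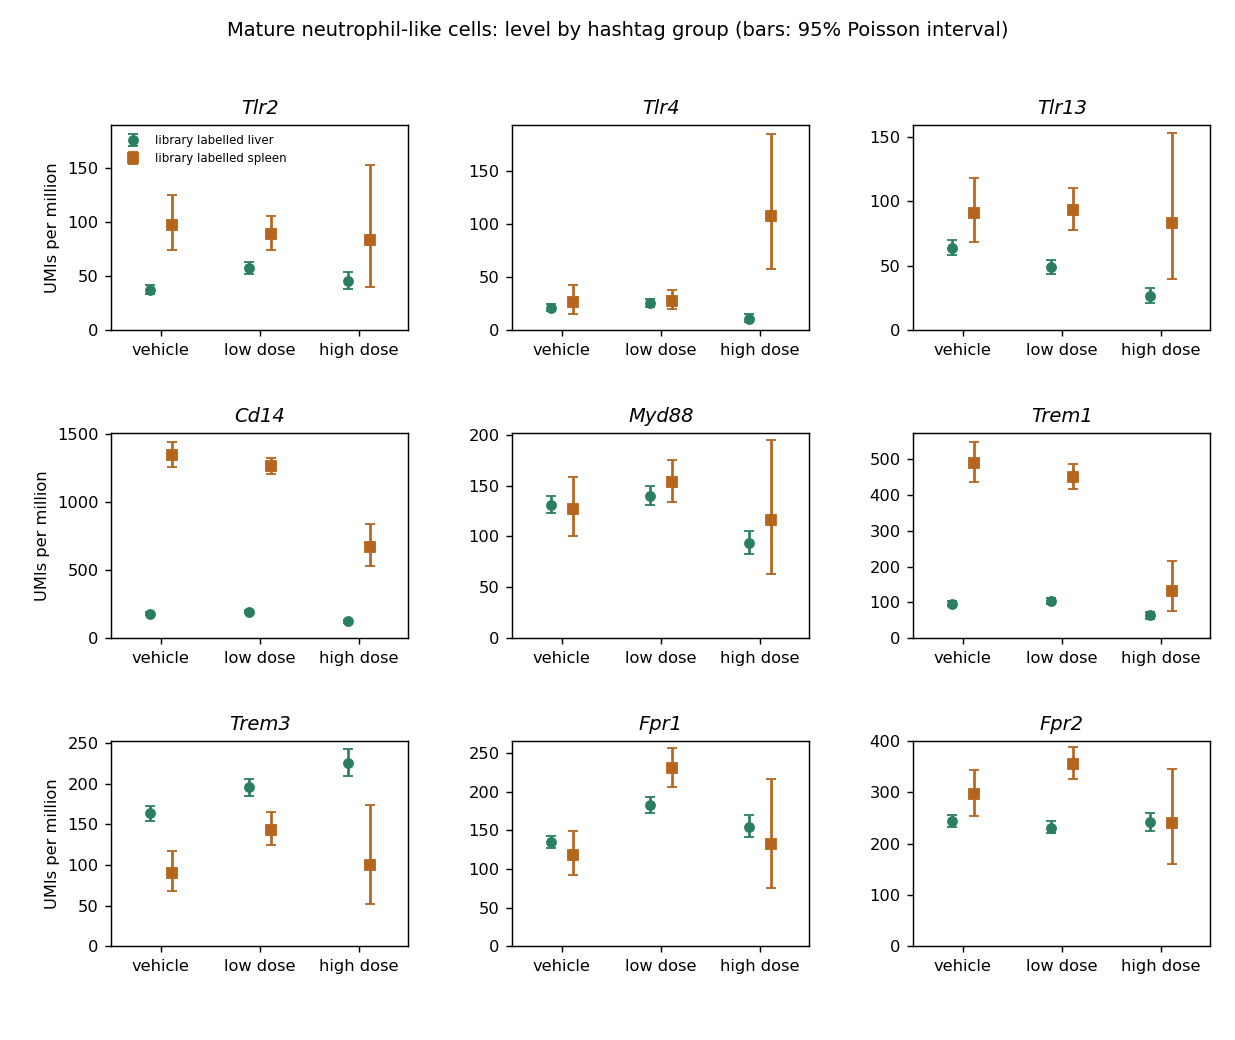
CPM of each of the 9 genes in mature neutrophil-like cells by hashtag group, circles for the liver-labelled library and squares for the spleen-labelled library, with 95% Poisson intervals that cover counting error only. Cd14 and Trem1 sit far higher in the spleen-labelled library in the vehicle and low-dose groups than in the liver-labelled one. Their high-dose points in that library, from 15 cells with wide intervals, lie below its vehicle points but above those of the liver-labelled library.

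The spleen-labelled library gave a high-dose comparison for 3 of the 9 genes. Cd14 stood at 1346, 1265 and 673 CPM in the vehicle, low-dose and high-dose groups, a high-dose log2 ratio of -1.001 (-1.35 to -0.67), just past 2-fold. Trem1 stood at 489, 449 and 133, a ratio of -1.88 (-2.71 to -1.16). Fpr2 stood at 296, 356 and 241, a ratio of -0.30 (-0.92 to 0.27). These 2 of 3 genes compare with 12.7% of 777 tested genes at least 2-fold lower, and 4.63% were at least 2-fold higher. Since the high-dose group had 15 cells, of which the 3 richest held 54.3% of the Cd14 and 56.3% of the Trem1 UMIs, these values rest on few cells. At the low dose none of 8 genes passed 2-fold (1.35% of 1919 genes were higher and 1.09% lower). The largest low-dose difference was in Fpr1, from 119 to 230, a log2 ratio of 0.96 (0.58 to 1.35), followed by Trem3, from 90.5 to 143, at 0.66 (0.23 to 1.12). The Trem3 ratio was -0.12 over mature and immature cells together. The groups were also spread differently over clusters, as the cluster led by Orm1 and Saa1 held 118 of the 410 low-dose and 2 of the 193 vehicle cells. In the cluster led by Il1b and G0s2, with 161 vehicle and 256 low-dose cells, Fpr1 stood at 126 and 197 CPM and Trem3 at 85.2 and 163.

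Within the stefin-high cluster, which held cells of every group, the high-dose differences in Tlr13, Tlr4, Cd14 and Trem1 were smaller. Of its cells in the liver-labelled library, 214 were vehicle, 206 low-dose and 140 high-dose. Tlr13 there stood at 24.4, 20.8 and 24.1 CPM across these groups, with a high-dose log2 ratio of -0.02 (-0.49 to 0.45). Cd14 stood at 119, 122 and 114 (-0.06, -0.27 to 0.15), Trem1 at 54.6, 56.3 and 61.9 (0.18, -0.12 to 0.48) and Trem3 at 224, 229 and 227 (0.02, -0.12 to 0.17). Tlr2 was higher than vehicle at both doses, at 29.4, 43.7 and 44.0 (0.57, 0.20 to 0.94, and 0.58, 0.20 to 0.96). None of the 8 genes with enough UMIs passed 2-fold (background 0.606% higher and 0.346% lower among 3467 genes). The lower levels of Tlr13, Cd14 and Trem1 over the whole class were thus not seen among cells of this cluster, which made up 140 of the 156 high-dose cells and 214 of the 1232 vehicle cells.

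The stefin-high cluster of the spleen-labelled library, with 63, 78 and 70 cells and named immature there, differed little in Cd14 at the high dose but did in Trem1. Cd14 stood at 327, 453 and 345 CPM, a high-dose log2 ratio of 0.08 (-0.19 to 0.34). Trem1 stood at 241, 210 and 146, a high-dose ratio of -0.73 (-1.08 to -0.37). Myd88 was higher at the high dose, from 77.9 to 117 (0.59, 0.08 to 1.12). None of the 6 genes with at least 100 UMIs passed 2-fold (background 1.72% higher and 0.633% lower among 1106 genes).

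**Figure D4:**
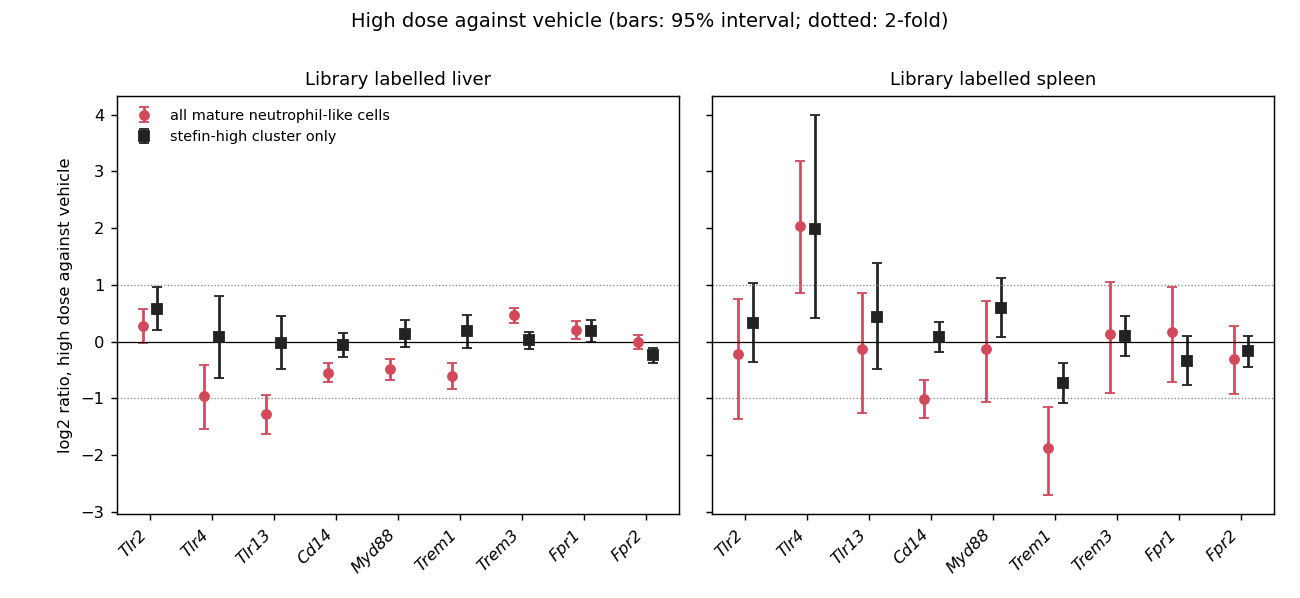
Log2 ratio of high dose against vehicle for each of the 9 genes, over all mature neutrophil-like cells (circles) and within the stefin-high cluster alone (squares; an immature cluster in the spleen-labelled library), with 95% intervals for counting error; dotted lines mark 2-fold. The circles of Tlr13 (library labelled liver), Cd14 and Trem1 (library labelled spleen) reach or pass the lower dotted line, while the squares lie inside both lines for every gene but Tlr4 in the spleen-labelled library, which has 20 and 4 UMIs.

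The formyl peptide receptors were higher in low-dose monocyte-like and macrophage-like cells of both libraries, but not alone among the 9 genes. In monocyte-like cells the low-dose log2 ratios of Trem1, Trem3 and Cd14 were 1.35, 0.79 and 0.92 in the liver-labelled library. They were 0.23, 0.71 and 0.16 in the spleen-labelled library. In macrophage-like cells of the spleen-labelled library Trem1 was at 1.32 and Trem3 at -0.64. The Trem1 ratios of 1.35 and 1.32 had too few UMIs for the 2-fold rule. Fpr2 in monocyte-like cells stood at 53.3, 150 and 67.0 CPM in the vehicle, low-dose and high-dose groups of the liver-labelled library, with a low-dose log2 ratio of 1.49 (1.14 to 1.85). Its levels were 55.6, 175 and 142 in the spleen-labelled library, with a ratio of 1.66 (1.16 to 2.18). At the high dose its ratios were 0.33 (-0.26 to 0.89) and 1.35 (0.80 to 1.92). It was the one gene of the 6 with enough UMIs that passed 2-fold at the low dose in each library, where 1.33% of 4064 and 1.13% of 2298 genes were at least 2-fold higher and 0.763% and 0.479% lower. Fpr1, with fewer UMIs, stood at 8.46, 48.6 and 11.2 in the liver-labelled library (17, 60 and 6 UMIs) and at 13.2, 37.5 and 38.9 in the spleen-labelled library (10, 34 and 23 UMIs). In low-dose monocyte-like cells, 3 cells held 40% and 50% of these Fpr1 UMIs, and 20% and 27.04% of the Fpr2 UMIs. The vehicle CPM intervals did not overlap the low-dose CPM intervals in either library for either receptor. Unthinned, 10.2% (5.56 to 16.9) of vehicle and 26.5% (17.4 to 37.3) of low-dose monocyte-like cells of the liver-labelled library had an Fpr1 UMI. In the spleen-labelled library these shares were 9.46% (3.89 to 18.5) and 18.2% (10.3 to 28.6), with overlapping intervals. After thinning to 500 UMIs the intervals of the Fpr1 shares overlapped in both libraries.

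Both receptors were also highest at the low dose in macrophage-like cells. The clusters of this name differed between the libraries. In the liver-labelled library Vcam1, Cd5l, Marco and Spic were among the leading genes, at a median of 1531 UMIs per cell. In the spleen-labelled library Arg1, Ccl8 and Mmp12 were, at a median of 14465.5. Median depth was 1605, 2789 and 866 UMIs in the vehicle, low-dose and high-dose macrophage-like cells of the liver-labelled library. Fpr2 stood at 30.3, 136 and 47.8 CPM in the spleen-labelled library (low-dose log2 ratio 2.16, 1.52 to 2.87) and at 28.3, 101 and 9.47 in the liver-labelled library (21 low-dose and 6 vehicle UMIs). Fpr1 stood at 11.02, 65.7 and 23.6 in the spleen-labelled library, from 8, 81 and 39 UMIs, and at 9.42, 86.5 and 28.4 in the liver-labelled library, from 2, 18 and 3. Of the low-dose UMIs, 3 cells held 33.3% and 50% for Fpr1 and 19.8% and 47.6% for Fpr2 in the spleen-labelled and liver-labelled libraries. Tlr2, which senses lipoproteins, stood at 27.5, 94.1 and 41.8 in the spleen-labelled library, a low-dose ratio of 1.77 (1.08 to 2.54). Fpr2 and Tlr2 were the 2 of 5 genes past 2-fold in macrophage-like cells of that library (background 1.89% higher and 0.7% lower among 2856 genes).

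Cd14 was higher at the low dose in macrophage-like cells, by very different amounts in the unlike clusters of the libraries. Its levels in the liver-labelled library were 47.1, 726 and 75.8 CPM in the 3 groups, from 10, 151 and 8 UMIs in 64, 58 and 64 cells. The low-dose log2 ratio was 3.95 (3.03 to 5.03), and 46.4% of the 151 UMIs lay in 3 cells. Cd14 was the single gene of the 9 with enough UMIs there (background 2.65% higher and 1.51% lower among 529 genes). The spleen-labelled library gave 485, 854 and 359, a low-dose ratio of 0.82 (0.64 to 0.99) and a high-dose ratio of -0.43 (-0.63 to -0.24). Cd14 in monocyte-like cells was lower at the high dose, by log2 ratios of -1.47 (-2.14 to -0.87) from 24 cells and -0.81 (-1.13 to -0.51) from 40 cells.

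**Figure D5:**
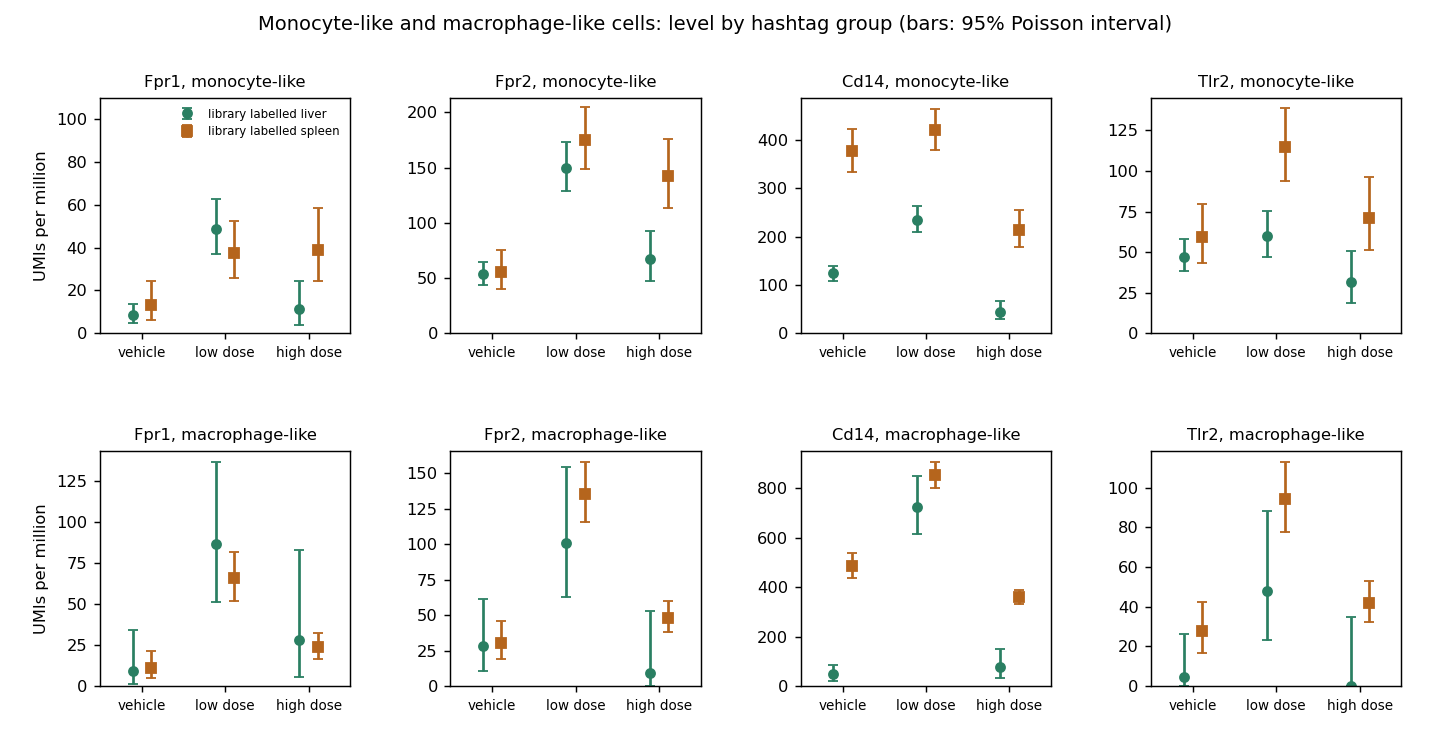
CPM of Fpr1, Fpr2, Cd14 and Tlr2 in monocyte-like (upper row) and macrophage-like cells (lower row) by hashtag group, circles for the liver-labelled library and squares for the spleen-labelled library, with 95% Poisson intervals. The low-dose points of Fpr1 and Fpr2 lie above the vehicle points in all 4 panels of these genes.

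Neutrophil markers were measured beside these differences, since neutrophil-like cells held most UMIs of both formyl peptide receptors. All 16 genes of the mature and immature neutrophil lists were detected in monocyte-like cells of the vehicle and low-dose groups of both libraries. Their sum was 3622, 4988 and 4004 CPM in the 3 groups of the liver-labelled library, and 3624, 3517 and 3245 in the spleen-labelled library. Macrophage-like cells had 14, 14 and 11 of the 16 genes detected and sums of 905, 1620 and 1013 in the liver-labelled library, and 13, 16 and 16 genes with sums of 1062, 1849 and 2795 in the spleen-labelled library. The sums in vehicle mature neutrophil-like cells were 45950 and 37393. S100a8, an abundant neutrophil transcript outside the list, stood at 6124, 12019 and 16015 CPM in monocyte-like cells of the liver-labelled library and at 8843, 8190 and 11824 in those of the spleen-labelled library. In macrophage-like cells it stood at 1475, 2052 and 710 in the liver-labelled library and at 266, 3129 and 2956 in the spleen-labelled library. Fpr2 in monocyte-like cells of the spleen-labelled library was higher at the low dose, while the sum of the neutrophil lists and S100a8 were not. The mature list alone went from 2695 to 2270 CPM there. That fall was larger than the fall of the sum, so the immature list rose. In the other 3 settings Fpr2, the sum and S100a8 were all higher at the low dose. The part of neutrophil RNA in any of these results was not tested.

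The list of 41 other genes of these pathways showed few differences of 2-fold in mature neutrophil-like cells. At the high dose in the liver-labelled library 4 of the 19 genes with enough UMIs were lower and 0 higher. These were Irak1 (-1.57) and Irak2 (-1.02), kinases downstream of MyD88, Cnpy3 (-1.30), a chaperone of Toll-like receptors, and Hcst (-1.07), which encodes the adaptor DAP10. The share of 4 in 19 is to be set against the 19.5% of all genes given above. At the low dose 0 of 20 passed 2-fold in the liver-labelled library (background 0.183% higher and 0.764% lower). The spleen-labelled library had 0 of 4 at the high dose (background 4.63% higher and 12.7% lower). At the low dose it had 1 of 7 (background 1.35% higher and 1.09% lower). That gene was Irak3, an inhibitor of the same kinases, from 42.8 to 90.8 CPM (1.09, 0.47 to 1.75). Monocyte-like cells of the liver-labelled library had Irak3 (1.49, 0.97 to 2.02) and Treml4 (2.73, 2.14 to 3.36), a relative of the TREM receptors, higher at the low dose among 17 genes (background 1.33% as above). Those of the spleen-labelled library had 0 of 9 (background 1.13% higher and 0.479% lower).

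The same list had 0 genes past 2-fold in the stefin-high cluster at the high dose (13 and 6 genes with enough UMIs) and in macrophage-like cells at the low dose (2 and 11). Backgrounds of the liver-labelled and spleen-labelled libraries were 0.606% and 1.72% higher, and 0.346% and 0.633% lower, in the stefin-high cluster. In macrophage-like cells they were 2.65% and 1.89% higher, and 1.51% and 0.7% lower. Between the libraries 1 of 18 was past 2-fold in vehicle mature neutrophil-like cells, Irak2 (1.18, 0.41 to 1.87). The background there was 4.63% higher and 5.22% lower among 4945 genes. Vehicle mature neutrophil-like cells of the liver-labelled library expressed Tlr1 and Tlr6, the partners of TLR2, at 40.7 and 26.2 CPM, and Ly96, the partner of TLR4, at 33.1. Tlr9, Tlr11 and Tlr12 had 0 UMIs there, which allows up to 0.383 CPM. Immature cells of that library were lower for Tlr1 (-1.46), Tlr6 (-1.45), Tlr8 (-1.48), Ly96 (-1.59), Cnpy3 (-1.33), Irak2 (-1.60) and Syk (-1.19), 7 of 19 genes with 0 higher, against 22.6% lower and 2.82% higher among all tested genes. Lbp (1.73) and Hsp90b1 (1.54) were higher in immature cells of the spleen-labelled library, and Tyrobp (-1.08), Hcst (-1.25) and Syk (-2.14) lower, among 7 genes, against 19.5% higher and 24.7% lower among all tested genes. Fpr3, which overlaps Fpr2, had 1 UMI in the vehicle mature neutrophil-like cells of the liver-labelled library against 1912 of Fpr2.

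Similarity of pattern was described by Pearson correlation of log2 levels over 19 class-by-library points, among 12204 genes. The points share libraries, depth and the neutrophil classes, and no p-value is given. Among the 9 genes Tlr2 and Myd88 (0.93) and the neighbours Fpr1 and Fpr2 (0.91) were most alike, and Tlr4 and Trem3 (0.34) least. Trem1 and Trem3 correlated at 0.68. Outside Myd88, the genes nearest to each member were Il1r2 for Trem1 (0.95), Il1b and Litaf for Cd14 (0.91 each), Cd300c2 for Tlr13 (0.98), Wfdc17 for Fpr1 (0.95), Pygl for Fpr2 (0.97), F630028O10Rik for Trem3 (0.97), Sdcbp for Tlr4 (0.95) and Ddi2 for Tlr2 (0.94).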

How the data were processed

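The deposited files held raw UMI counts per gene and barcode from 2 droplet libraries (10x Genomics), with 3 hashtag counts per barcode, which the authors produced with Cell Ranger (5.0.0 per the file headers, 6.0.0 in the submitters' processing notes; the study's methods name another version) on mm10. Seurat is also named there. Groups came from the hashtag key in the labels, and samples from the labels' titles. The members and gene lists were chosen with earlier results of these data known. Depth was 26508853, 24825952 and 17333148 UMIs in assigned vehicle, low-dose and high-dose cells of the liver-labelled library, and 7130127, 10552754 and 10589251 in the spleen-labelled library.

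Hashtags were called with HTODemux at quantile 0.99 (Seurat 5.3.0 in R 4.3.3). Hashtag doublets (616 and 215 barcodes) and negatives (540 and 1627) were left out. Scrublet (scanpy 1.11.5), run on all barcodes before the hashtag calls, marked 248 and 1 of them. Marked barcodes among the assigned cells were kept in the main analysis and removed in an alternative. That alternative removed at most 1 cell of the spleen-labelled library. Each library was normalised with SCTransform (sctransform 0.4.2, first-version variance model), reduced to 30 principal components and clustered at resolution 0.8, with the 9 genes and the 41 pathway genes left out of the variable features. A cluster was named "X-like" where at least 3 markers of 1 list were raised 2-fold and detected in at least 20% of its cells. Where several lists qualified, the list with the most genes among the 10 leading genes was taken. Ties went to the list with the larger share of raised markers. Of 23 and 18 clusters, 5 and 1 stayed unnamed. The assigned cells were not filtered further on genes or mitochondrial UMIs.

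UMIs were summed per class, hashtag group and library and scaled to 1e+06 UMIs of that class (CPM), with exact 95% Poisson intervals. Shares of cells were taken after thinning to 500 UMIs. Log2 ratios carry exact conditional binomial intervals, and a gene counted as past 2-fold only with at least 100 UMIs over both groups. The largest share or level that a count of 0 allows was set at 3 counts. No test was run, since a hashtag group in a library is 1 sample. The ratio code was tested on simulated counts. Named genes were the 9 members, the listed pathway genes past 2-fold, and the genes most alike to each member over classes of at least 50 cells with 10 CPM added to each level. Gene positions were taken from GENCODE M21, in which 32158 of 32285 identifiers were found, and promoters from a RefSeq table. Alternatives were other hashtag calls, cell filters, resolutions, averaging per cell, leaving out the 20 most abundant genes, pooling mature with immature cells, and a minimum of 50 UMIs. The stefin-high cluster alone, and all alternatives for monocyte-like and macrophage-like cells, were added after seeing the data.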

Additional observations from a re-analysis of the deposited data

Results flagged for a closer look

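Tlr4 in mature neutrophil-like cells went in opposite directions in the libraries when high dose was set against vehicle. The log2 ratio was -0.96 in the liver-labelled library, from 33 high-dose and 164 vehicle UMIs, and 2.04 in the spleen-labelled library, from 13 and 16 UMIs. Both intervals for counting error left out 0, and the difference between the libraries was not tested, since each group is 1 sample. Over 10 alternatives the ratios ran from -2.23 to 0.09 and from 0.63 to 2.06. The high-dose value of the spleen-labelled library comes from 15 cells, and 53.8% of its UMIs lay in 3 of them. Within the stefin-high cluster the ratios were 0.09 (-0.63 to 0.80) and 1.99 (0.41 to 4.00), the latter from 20 and 4 UMIs. In the spleen-labelled library that cluster is in the immature class and holds other cells.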

How the results depend on the processing

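At the high dose, 1 of the 9 genes was past 2-fold in mature neutrophil-like cells of the liver-labelled library. This count was 2 with MULTIseqDemux hashtag calls and 2 with a mean over cells, and 0 when immature cells were pooled in or the stefin-high cluster was taken alone. The 2 genes of the spleen-labelled library became 1 with MULTIseqDemux, with the dominant hashtag, with a filter of at least 200 genes and under 10% mitochondrial UMIs per cell, without the 20 most abundant genes and with immature cells pooled in. The cause was not tested. The stefin-high cluster of that library belongs to the immature class, so it holds none of these mature cells. In that cluster the count was 0, and Cd14, at -1.001 in the mature class, was 0.077. At the low dose the count of 0 in the spleen-labelled library became 1 with a mean over cells, without the 20 most abundant genes and with immature cells pooled in, and it was 0 under every alternative in the liver-labelled library. The high-dose ratio of Tlr13 in the liver-labelled library ran from -1.58 to -0.02 over 10 alternatives, the latter in the stefin-high cluster. The high-dose ratio of Cd14 in that library ran from -0.59 to 0.55, the latter at resolution 0.4, so its direction depends on how clusters are drawn. Low-dose ratios of Fpr2 in monocyte-like cells ran from 1.35 to 1.70 and from 1.16 to 1.88 over 7 alternatives, and in macrophage-like cells of the spleen-labelled library from 1.98 to 2.25. No paired analysis was possible because each comparison within a library sets 1 pooled sample against 1, and for the same reason no replicate could be left out. A fit over both libraries with library as a term was not run. Depth limits the 15 high-dose mature neutrophil-like cells of the spleen-labelled library, where 6 of the 9 genes had too few UMIs.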
